A study of Mus musculus with 26 samples.

Results

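Integrins, laminins and fibronectin were followed as one cell adhesion system. Members were the rows of the RNA-seq count tables named for an integrin alpha or beta chain, a laminin alpha, beta or gamma chain, or fibronectin (Fn1). These names gave 38 genes of 52535 gene rows, made up of 26 integrin chains, 11 laminin chains and Fn1. Loops of RNA polymerase II (Pol II) were members when an anchor lay within 2500 bases of one of these genes in mm10. This gave 2326 of 489409 loops in the list labelled KO and 538 of 143451 loops in the list labelled WT.

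The study concerned Klf4, a Krüppel-like transcription factor active in naive pluripotency, and compared Klf4 knockout (KO) with wild-type (WT) cells of the mouse embryonic stem cell (ESC) line E14. The libraries used here were labelled KLF4-KO neural progenitor cells (NPCs) and WT NPCs, both after 12 days of neural induction, with 2 RNA-seq libraries and 2 Pol II HiChIP samples per label. Before induction, cells of both labels had been kept on gelatin in serum medium with LIF, the MEK inhibitor PD0325901 and the GSK3 inhibitor CHIR99021. How the knockout was made, and from how many clones, is not given in the sources used here. Another 18 ChIP-seq and input samples of undifferentiated ESCs were not used.

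The RNA-seq libraries went against their labels at the targeted gene. Klf4 had 2571 and 2538 counts in the KO-labelled libraries, against 0 counts in each WT-labelled library, and was at least 752-fold higher with a floor of 3 counts per library. All groups are therefore called by their labels, every direction is KO-labelled over WT-labelled, and no measurement here checks the label of the loop lists. The libraries held 29835774 to 37703866 gene counts. Neural progenitor markers were higher in the KO-labelled libraries for all 9 tested of the 10 listed, with summed levels of 320.1 to 324 CPM (counts scaled to library size) in KO-labelled and 90.6 to 92.1 CPM in WT-labelled libraries. Among these defining markers, Hes5 stood at 0.112 to 0.204 CPM in KO-labelled libraries, and Fabp7, Hes5 and Pax3 had 0 counts in WT-labelled ones. Pluripotency markers remained abundant under both labels, with summed levels of 4597 to 4687 CPM in KO-labelled and 8774 to 8794 CPM in WT-labelled libraries, and 9 of 10 were lower in the KO-labelled libraries. Fibroblast and mesoderm markers summed to 429 to 442 CPM in KO-labelled and 8.24 to 8.56 CPM in WT-labelled libraries, with all 8 tested of 10 higher. Endoderm markers summed to 367 to 379 CPM in KO-labelled and 452 to 455 CPM in WT-labelled libraries. In the KO-labelled libraries 9 of 10 were higher and Sparc was lower. Sparc made up most of both sums, averaging 251 CPM in KO-labelled and 439 CPM in WT-labelled libraries. Endothelial markers summed to 94.5 to 95.7 CPM in KO-labelled and 95.8 to 99.7 CPM in WT-labelled libraries, with 5 higher and 1 lower among 7 tested. Pecam1, the marker called lower, made up most of both sums, averaging 69.7 CPM in KO-labelled and 93.8 CPM in WT-labelled libraries. The part of these cell type differences in the results on adhesion genes was not tested.

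Laminins are large heterotrimers of one alpha, one beta and one gamma chain that assemble into basement membranes, the sheets of matrix on which epithelia and the early embryo rest. Fibronectin is a secreted dimer whose RGD motif is bound by a subset of integrins. Integrins are heterodimers of one alpha and one beta chain that span the membrane and tie the matrix to the actin cytoskeleton, and the beta1 chain pairs with most of the alpha chains that read laminin, collagen and fibronectin. In the epiblast and the neuroepithelium, laminin and beta1 integrin are known for their role in forming a polarised layer of cells.

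Expression changed in opposite directions from chain to chain. In the KO-labelled libraries the integrin chain Itgb1 and the laminin chain Lamb1 were 5.58- and 4.51-fold higher, while the laminin chains Lama1 and Lamc1 were 4.71- and 1.59-fold lower, and Fn1 was not called. Of the 38 members, 31 had enough counts to be tested, of which 15 rose, 5 fell and 11 did not pass (edgeR quasi-likelihood test; calls are at an adjusted p below 0.05, by Benjamini-Hochberg over 17273 genes). Over all genes tested, 73.1% were called, with 37.2% higher and 35.8% lower, and the members' share of 64.5% lies below that background. Integrins accounted for 12 rises and 2 falls among 21 tested, and laminins for 3 rises and 3 falls among 9 tested. The median log2 fold change was 0.38 over the members tested, also with Itgb8 set at its lower bound, and 0.03 over all genes tested. Split by level, it was 0.03 over the 17 members at 5 CPM or more and 1.55 over the 14 tested members under 5 CPM. The higher median of the set thus came from members with low counts. The libraries of the 2 labels did not overlap for 26 of the 31 members tested, beside a background of 86.3%. In these bulk samples, fewer cells of a type and less RNA per cell cannot be told apart. The label does not say whether replicates came from separate clones, so p-values measure the spread between the stated biological replicates.

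**Figure D1:**
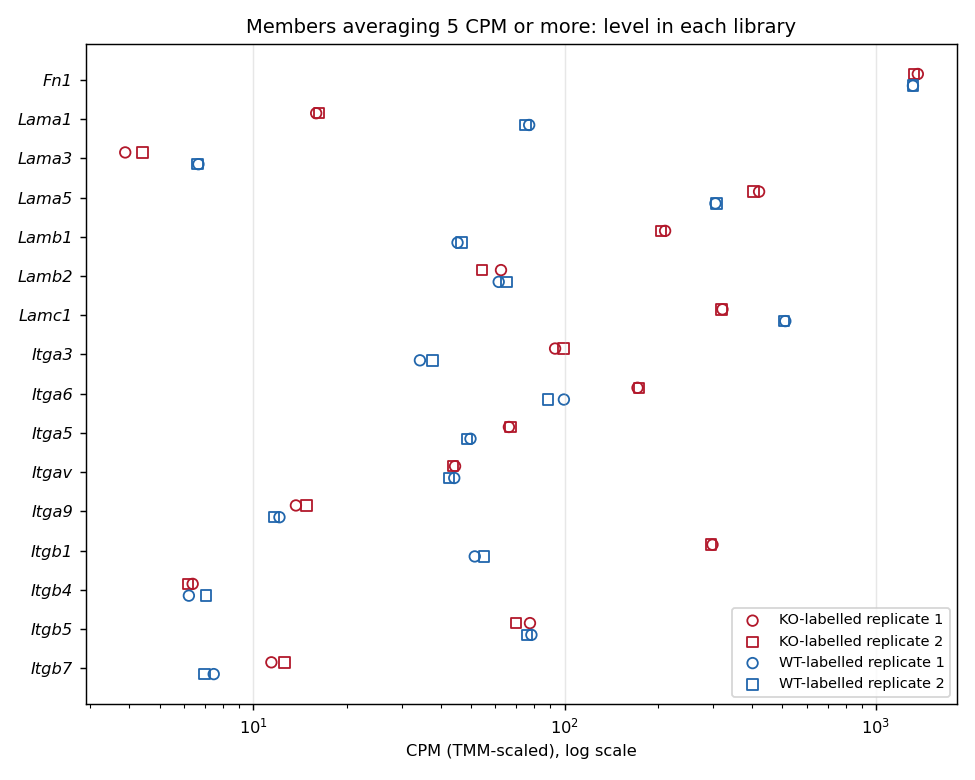
Level of each of 16 members averaging 5 CPM or more, in CPM on a log scale, with 1 symbol per library (red for KO-labelled above blue for WT-labelled). Itgb1, Lamb1 and Itga3 lie well to the right in both KO-labelled libraries, Lama1 and Lamc1 to the left, and the 4 symbols of Fn1 and Itgav lie close together.

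Fibronectin RNA was abundant under both labels. Fn1 (chr1:71585473-71653280), the matrix glycoprotein bound by alpha5-beta1 and alphav integrins, had 1364 and 1328 CPM in KO-labelled libraries, against 1315 and 1317 CPM in WT-labelled libraries. The 4 libraries lay within a narrow band, and the log2 fold change of 0.03 ± 0.023 (SE) did not pass (edgeR adjusted p = 0.209). The call turned on the scaling, since Fn1 was called higher with upper-quartile factors (0.12, edgeR adjusted p = 0.000129) and with library size alone (0.24, edgeR adjusted p = 3.65e-10). It was also called without KO replicate 2, at a log2 fold change of 0.05 (edgeR adjusted p = 0.0329). As a share of all gene counts, Fn1 took 0.146% and 0.143% in KO-labelled libraries, against 0.122% and 0.122% in WT-labelled libraries.

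The laminin alpha chains moved in opposite directions. Lama1 (chr17:67697127-67822645), the alpha chain of laminin-111 in the earliest embryonic basement membranes, had 15.9 and 16.3 CPM in KO-labelled libraries, against 77.0 and 74.9 CPM in WT-labelled libraries. Its fall of 2.24 ± 0.069 on the log2 scale was the largest among the laminins tested (edgeR adjusted p = 1.55e-19). Lama5 (chr2:180176373-180225904), the alpha chain of laminin-511, had 422 and 405 CPM in KO-labelled libraries, against 305 and 308 CPM in WT-labelled libraries. Both KO-labelled libraries lay above both WT-labelled ones, at a log2 fold change of 0.43 ± 0.029 (edgeR adjusted p = 1.49e-12). Lama3, a chain of the laminin-332 of epithelial anchoring sites, had 3.88 and 4.41 CPM in KO-labelled libraries, against 6.67 and 6.61 CPM in WT-labelled libraries. It was lower, with a log2 fold change of -0.68 ± 0.19 (edgeR adjusted p = 0.00296). Lama4, a chain of vessel basement membranes, averaged 0.992 ± 0.412 CPM in KO-labelled and 0.867 ± 0.306 CPM in WT-labelled libraries (SD, n = 2 each) and was not called. Lama2, the alpha chain of muscle laminin, was too low to test, with 14 and 6 counts in KO-labelled libraries, against 0 and 3 counts in WT-labelled libraries.

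Among the laminin beta chains, the rise was carried by Lamb1. Lamb1 (chr12:31265146-31329644), the beta chain of laminin-111 and laminin-511, had 210.4 and 204 CPM in KO-labelled libraries, against 45.3 and 46.6 CPM in WT-labelled libraries. The groups were far apart relative to their spread, with a log2 fold change of 2.17 ± 0.044 (edgeR adjusted p = 3.09e-23). Lamb3, the beta chain of laminin-332, stood at 3.65 and 3.99 CPM in KO-labelled libraries, against 0.798 and 0.542 CPM in WT-labelled libraries. It rose by a log2 fold change of 2.49 ± 0.34 (edgeR adjusted p = 4.41e-07), opposite to its trimer partner Lama3. Lamb2 (chr9:108479847-108490530), the beta chain of synaptic and kidney laminins, had 62.5 and 54.3 CPM in KO-labelled libraries, against 61.4 and 65.2 CPM in WT-labelled libraries. Its groups overlapped and it was not called (log2 fold change -0.12 ± 0.064, edgeR adjusted p = 0.111), although it was called lower without KO replicate 1 (-0.22, edgeR adjusted p = 0.00293), and the sign turned with library size alone (0.09).

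Among the laminin gamma chains, the main chain fell. Lamc1 (chr1:153218922-153332786), the gamma chain of most laminins, had 322 and 319 CPM in KO-labelled libraries, against 512 and 507 CPM in WT-labelled libraries. Both KO-labelled values were lower, with a log2 fold change of -0.67 ± 0.027 (edgeR adjusted p = 5.01e-17). Lamc3, a gamma chain with restricted expression, had 0 and 4 counts in KO-labelled libraries, against 4 and 0 counts in WT-labelled libraries, and was not tested.

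**Figure D2:**
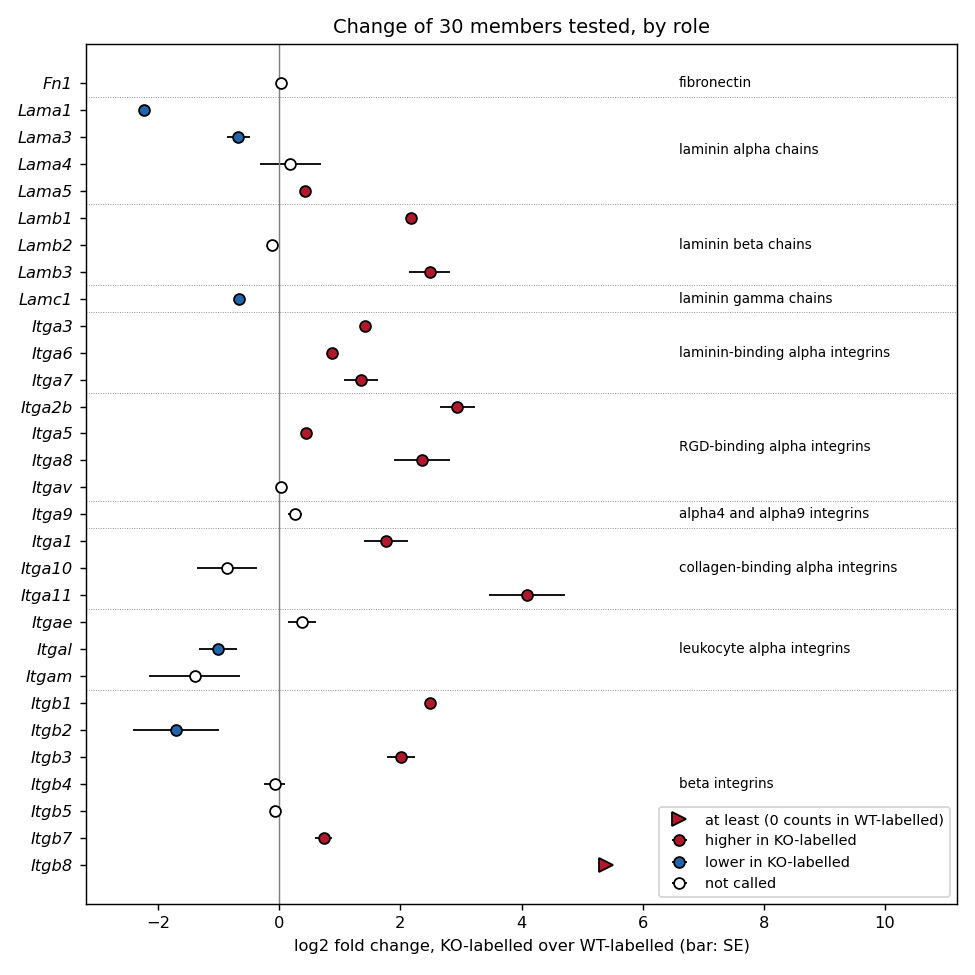
Log2 fold change (KO-labelled over WT-labelled, bar SE) of 30 members tested, grouped by role, with filled circles for called members and a triangle for the lower bound of Itgb8. The laminin-binding alpha integrins are all right of 0, whereas the laminin alpha and gamma chains hold Lama1, Lama3 and Lamc1 left of 0.

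All 3 laminin-binding alpha chains were called higher, beside 37.2% of all genes tested, and their median log2 fold change was 1.34. Itgb4, the beta chain of the alpha6-beta4 laminin receptor, was not called. Itga3 (chr11:95044475-95076844), whose alpha3-beta1 dimer binds laminin-511 and laminin-332, had 93.2 and 99.1 CPM in KO-labelled libraries, against 34.3 and 37.7 CPM in WT-labelled libraries. The log2 fold change was 1.42 ± 0.060 (edgeR adjusted p = 1.02e-16), and every KO-labelled value was above every WT-labelled one. Itga6 (chr2:71786886-71858427), a chain of the alpha6-beta1 and alpha6-beta4 receptors used by ESCs and epithelia, had 172 and 173 CPM in KO-labelled libraries, against 99.5 and 88.6 CPM in WT-labelled libraries. It rose by 0.87 ± 0.046 on the log2 scale (edgeR adjusted p = 5.29e-14). Itga7, the alpha chain best known from muscle, averaged 4.17 ± 0.574 CPM in KO-labelled and 1.63 ± 0.359 CPM in WT-labelled libraries (SD, n = 2 each), at a log2 fold change of 1.34 ± 0.28 (edgeR adjusted p = 0.000159).

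Of the alpha chains that bind RGD ligands such as fibronectin, 3 of 4 were called higher, beside 37.2% of all genes tested. Their called share of 75% was near the 73.1% over all genes. Itga5 (chr15:103344286-103366791), the alpha chain of the main fibronectin receptor, had 66.3 and 67.1 CPM in KO-labelled libraries, against 49.9 and 48.5 CPM in WT-labelled libraries. Its rise was modest and well outside the spread, at a log2 fold change of 0.44 ± 0.057 (edgeR adjusted p = 2.32e-07). Itgav (chr2:83722303-83806917), the alpha chain of vitronectin and latent TGF-beta receptors, had 44.5 and 43.8 CPM in KO-labelled libraries, against 44.2 and 42.6 CPM in WT-labelled libraries. Its groups overlapped and it was not called (0.02 ± 0.065, edgeR adjusted p = 0.754), but it was called higher with library size alone (0.23, edgeR adjusted p = 0.00256), and its sign turned without WT replicate 2 (-0.01). Itga2b, the chain that pairs with Itgb3 in the platelet fibrinogen receptor, had 7.15 and 5.30 CPM in KO-labelled libraries, against 0.883 and 0.723 CPM in WT-labelled libraries. It showed the largest rise of this group, 2.94 ± 0.29 on the log2 scale (edgeR adjusted p = 1.58e-09). Itga8, a beta1 partner known from kidney development, had 3.24 and 3.54 CPM in KO-labelled libraries, against 0.228 and 1.16 CPM in WT-labelled libraries, and was also called, at a log2 fold change of 2.35 ± 0.47 (edgeR adjusted p = 0.0002). The WT-labelled libraries, with 8 and 32 counts, set its size, since it was 1.54 without WT replicate 1 and 3.86 without WT replicate 2, called in both.

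The remaining alpha chains were low or mixed. Itga9, a receptor chain for tenascin and other ligands, had 13.7 and 14.8 CPM in KO-labelled libraries, against 12.1 and 11.7 CPM in WT-labelled libraries, and was not called at a log2 fold change of 0.26 ± 0.12 (edgeR adjusted p = 0.0561). It did pass with upper-quartile factors (0.35, edgeR adjusted p = 0.0127) and with library size alone (0.47, edgeR adjusted p = 0.00122). Its relative Itga4, a VCAM1 and fibronectin receptor chain, had 18 and 10 counts in KO-labelled libraries, against 8 and 6 counts in WT-labelled libraries, and was not tested. Among the collagen-binding chains, Itga11, known from fibroblasts, rose most, with 1.49 and 2.37 CPM in KO-labelled libraries, against 0.171 and 0.0361 CPM in WT-labelled libraries (log2 fold change 4.09 ± 0.63, edgeR adjusted p = 2.71e-06). Its WT-labelled level rested on 6 and 1 counts, and the log2 fold change was 5.59 without WT replicate 1 and 3.46 without WT replicate 2, called in both. Itga1 was also called higher (1.76 ± 0.36), Itga10 was not called (-0.86 ± 0.49) and Itga2 was not tested, with 1 to 10 counts per library. The fibroblast and mesoderm markers given above moved the same way as Itga11 and Itga1.

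The leukocyte alpha chains and Itgb2 were low, each under 5 CPM in every library. Itgal, the alpha chain of LFA-1, had 1.20 and 1.92 CPM in KO-labelled libraries, against 3.13 and 3.22 CPM in WT-labelled libraries. It was called lower (log2 fold change -1.02 ± 0.31, edgeR adjusted p = 0.0056), and lost the call without KO replicate 1 (-0.72, edgeR adjusted p = 0.0872). Itgb2, its beta partner, had 0.175 and 0.195 CPM in KO-labelled libraries, against 0.513 and 0.723 CPM in WT-labelled libraries. Its call (-1.71 ± 0.71, edgeR adjusted p = 0.0331) rested on 6 to 20 counts per library and was lost in most alternatives, with edgeR or DESeq2 adjusted p-values of 0.0599 to 0.248. Itgae (0.38 ± 0.23) and Itgam (-1.40 ± 0.75) were not called, and Itgad and Itgax had no count in any library. Of 10 leukocyte markers, 3 were tested, of which 2 were called higher and 1 lower. Coro1a was higher (0.66 ± 0.22, edgeR adjusted p = 0.0107), and so was Csf1r, with 34 counts over the KO-labelled libraries, against 0 over the WT-labelled libraries. Laptm5, which made up most of the list's level, fell by 1.17 on the log2 scale, and the defining markers Ptprc and Tyrobp had 0 to 4 counts per library. The whole leukocyte list summed to 29.4 to 30.2 CPM in KO-labelled and 54.0 to 55.6 CPM in WT-labelled libraries.

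Among beta integrins, 4 of 7 tested rose, 1 fell and 2 were not called. Their called share of 71.4% was near the 73.1% over all genes tested. Itgb1 (chr8:128685654-128733579), the common beta chain, had 299 and 295 CPM in KO-labelled libraries, against 51.5 and 55.1 CPM in WT-labelled libraries. The log2 fold change was 2.48 ± 0.040 (edgeR adjusted p = 4.23e-25), and the distance between the labels was many times the spread within each. Itgb5 (chr16:33829665-33949338), a partner of Itgav, had 77.4 and 69.8 CPM in KO-labelled libraries, against 78.3 and 75.8 CPM in WT-labelled libraries. Its groups overlapped and it was not called (-0.07 ± 0.055, edgeR adjusted p = 0.289). Without KO replicate 1 it was called lower (-0.14), and with library size alone it was called higher (0.14). Itgb7, the partner of Itga4 and Itgae, had 11.4 and 12.6 CPM in KO-labelled libraries, against 7.47 and 6.97 CPM in WT-labelled libraries, a rise of 0.73 ± 0.14 on the log2 scale (edgeR adjusted p = 5.96e-05).

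Itgb4, the beta chain of hemidesmosomes, had 6.39 and 6.16 CPM in KO-labelled libraries, against 6.21 and 7.05 CPM in WT-labelled libraries, and was not called (-0.08 ± 0.18, edgeR adjusted p = 0.711). Its sign turned with upper-quartile factors (0.01), with library size alone (0.13) and without WT replicate 2 (0.0026). Itgb8, which activates TGF-beta and is expressed in neural progenitors, had 152 and 133 counts in KO-labelled libraries, against 0 counts in both WT-labelled libraries. It was at least 42.0-fold higher with a floor of 3 counts per library (edgeR adjusted p = 4.79e-11). Itgb3, the beta chain of the platelet and vitronectin receptors, averaged 7.80 ± 0.187 CPM in KO-labelled and 1.96 ± 0.552 CPM in WT-labelled libraries (SD, n = 2 each), at a log2 fold change of 2.01 ± 0.23 (edgeR adjusted p = 1.89e-08). It rose alongside its partner Itga2b. Itgb6 had 3 counts in all and was not tested.

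Because these chains act as dimers and trimers, the counts of one chain were set against those of a partner within each library, which removes the scaling between libraries. Counts are not per length, so only the change of a ratio between libraries can be read, not its level. Per count of Lama1 there were 13.2 and 12.5 counts of Lamb1 in KO-labelled libraries, against 0.589 and 0.622 in WT-labelled libraries. Per count of Lamc1 there were 0.654 and 0.638 counts of Lamb1 in KO-labelled libraries, against 0.0885 and 0.0921 in WT-labelled libraries. The laminin beta1 chain thus gained on both of its partners in laminin-111. Lama1 made up 3.60% and 3.81% of the laminin alpha counts in KO-labelled libraries, against 19.7% and 19.2% in WT-labelled libraries, and Lama5 made up 95.3% and 94.8%, against 78.3% and 78.9%.

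Among the receptors, Itgb1 gained on each of the alpha partners compared. It made up 73.5% and 74.7% of all beta integrin counts in KO-labelled libraries, against 35.4% and 37.2% in WT-labelled libraries, while Itgb5 made up 19.0% and 17.7%, against 53.8% and 51.2%. Per count of Itga6 there were 1.74 and 1.70 counts of Itgb1 in KO-labelled libraries, against 0.517 and 0.622 in WT-labelled libraries. Per count of Itga5 there were 4.51 and 4.40 counts of Itgb1 in KO-labelled libraries, against 1.03 and 1.14 in WT-labelled libraries. The smallest shift among the 4 alpha chains compared (Itga3, Itga5, Itga6 and Itgav) was against Itga3, with 3.20 and 2.98 counts of Itgb1 per count in KO-labelled libraries and 1.50 and 1.46 in WT-labelled libraries. In sum, alpha integrins stood at 415 and 424 CPM in KO-labelled libraries, against 253 and 242 CPM in WT-labelled libraries, and beta integrins at 407 and 396 CPM, against 145 and 148 CPM. These ratios are given as values, without a test of their own.

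**Figure D3:**
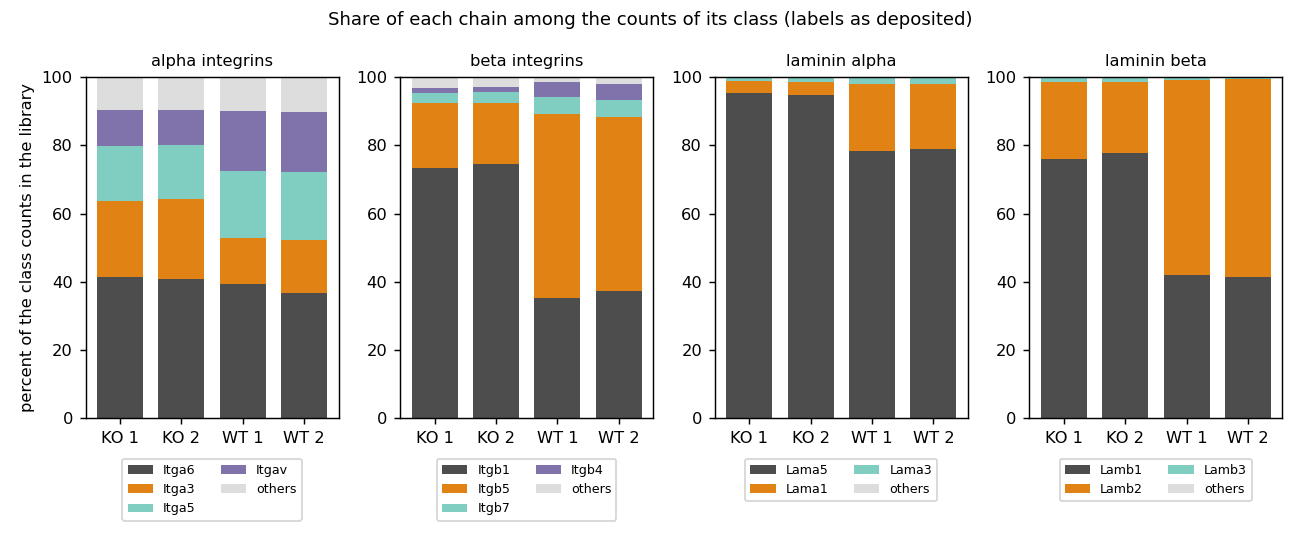
Share of each chain among the counts of its class in each library, in percent, for alpha and beta integrins and laminin alpha and beta chains (KO 1 and KO 2 left of WT 1 and WT 2). Itgb1 and Lamb1 fill most of the beta columns in both KO-labelled libraries, and the Lama1 share is smaller in both KO-labelled libraries.

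Most genes that work beside these chains were called, beside 73.1% of all genes tested (37.2% higher and 35.8% lower). The called shares were 92.9% of basement membrane partners, 88.0% of adaptors and 88.2% of other ligands tested. No test was run over these small lists. Of 14 basement membrane partners and other laminin receptors, 11 rose and 2 fell, and the list's median log2 fold change was 0.62. Col4a2 and Col4a1, the paired chains of basement membrane collagen, rose by 3.23 ± 0.10 and 2.54 ± 0.090 on the log2 scale, and Npnt, a ligand of alpha8-beta1, rose by 2.36 ± 0.23. Nid1, the nidogen that links laminin to type IV collagen, had 79.4 and 74.4 CPM in KO-labelled libraries, against 346 and 344 CPM in WT-labelled libraries. It fell by 2.17 on the log2 scale (SE 0.037), close in size to Lama1, and Egfl6, a secreted ligand with an RGD motif, fell by 4.01 (SE 0.38). All of these had edgeR adjusted p-values of 2.29e-09 or lower. Leaving out KO replicate 1 gave -3.35 for Egfl6, and leaving out KO replicate 2 gave -5.33, both called.

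Of 26 adaptors and focal adhesion genes, 25 were tested. Of these 15 rose and 7 fell, and the list's median log2 fold change was 0.48. Zyx, the stress fibre protein zyxin, had 64.7 and 67.1 CPM in KO-labelled libraries, against 5.50 and 6.11 CPM in WT-labelled libraries (3.51 ± 0.089, edgeR adjusted p = 3.38e-21). Parva, the actin-binding parvin alpha, had 40.1 and 41.5 CPM in KO-labelled libraries, against 3.22 and 3.03 CPM in WT-labelled libraries (3.70 ± 0.12, edgeR adjusted p = 2.22e-19). Lims2, a PINCH adaptor, was called higher with 28 and 25 counts in KO-labelled libraries, against 0 and 2 counts in WT-labelled libraries, a count ratio of 23.7 with a 95% counting interval of 6.25 to 201. The largest falls were in the tensin genes Tns1 and Tns3 and in an integrin-binding protein. The tensin gene Tns2 on the same list was called higher (2.15 ± 0.18, edgeR adjusted p = 1.95e-10). Tns1 fell by 1.31 (SE 0.083), Tns3 fell by 0.86 (SE 0.035) and Itgb1bp1, which binds the beta1 tail, fell by 0.38 (SE 0.12). Of these, Itgb1bp1 lost its call with library size alone (-0.17), without WT replicate 2 (-0.29) and without KO replicate 2 (-0.32). Ilk, the kinase-like partner of parvin and PINCH, is listed with 14 counts over the KO-labelled and 3 counts over the WT-labelled libraries, and was not tested. How reads were assigned to genes is unsettled, so these counts alone do not show that Ilk was unexpressed.

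Of 21 other integrin ligands, 17 were tested. Of these 11 rose and 4 fell, and the list's median log2 fold change was 1.55. Thbs1, thrombospondin 1, had 143 and 137 CPM in KO-labelled libraries, against 0.114 and 0.108 CPM in WT-labelled libraries (10.24 ± 0.13, edgeR adjusted p = 3.28e-27). Its WT-labelled level rested on 4 and 3 counts, and DESeq2 gave a larger SE of 0.55. Tnc, tenascin C, had 363 and 348 counts in KO-labelled libraries, against 2 and 0 counts in WT-labelled libraries, a count ratio of 318 with a 95% counting interval of 87.8 to 2633. Fbln2, a fibulin of elastic and basement membrane matrix, rose by 5.03 ± 0.27 on the log2 scale. Spp1, the RGD ligand osteopontin, had 182 and 168 CPM in KO-labelled libraries, against 660 and 666 CPM in WT-labelled libraries (-1.92 ± 0.033, edgeR adjusted p = 7.34e-23). Icam1, the LFA-1 ligand, fell by 1.63 (SE 0.061). Fgg, a fibrinogen chain, was called lower on 6 to 39 counts per library (-1.79 ± 0.70, edgeR adjusted p = 0.0259). It lost the call with DESeq2 (-1.79) and with the replicate number as a block (-1.65). Without WT replicate 1 the value was -0.75, without KO replicate 1 it was -2.13 and without KO replicate 2 it was -1.50, none of them called. These 3 ligand and adaptor lists were chosen with earlier results known, and each held both rises and falls. All tested fibroblast and mesoderm markers and all tested neural progenitor markers were higher in the KO-labelled libraries. The part of such cell type differences in these lists was not tested.

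Pol II HiChIP pairs fragments bound by the polymerase, and each deposited loop joins a pair of anchors with a count of paired tags. There was 1 list per label with replicates pooled, so no difference between the lists has a replicate check. Kept loops had a false discovery rate of at most 0.01 and at least 2 tags. By this measure 276 of 57463 loops touched a member in the KO-labelled list, against 101 of 22148 loops in the WT-labelled list, with 1310 and 685 tags. As a share of all kept tags these were 0.458% (exact 95% interval 0.434% to 0.484%) in the KO-labelled list and 0.391% (0.362% to 0.421%) in the WT-labelled list. Intervals cover counting error only. Single genes weighed on both shares. In the KO-labelled list 268 tags lay at Lamc3, with none in the WT-labelled list, and 248 of them came from an anchor past its upper end. In the WT-labelled list 112 tags lay at Itgb7 and 93 at Fn1, with none at either gene in the KO-labelled list. The order of the shares thus depends on single genes. A kept loop lay at 25 of the 38 genes in the KO-labelled list and at 16 of 38 in the WT-labelled list, beside 54.3% and 37.8% of all 21887 protein-coding genes. Members are long genes, with a median span of 63.1 kb against 17.2 kb for protein-coding genes, and these shares were not adjusted for span. Of the member loops, 13 overlapped a kept loop of the other list at both anchors, which is 4.71% of those in the KO-labelled list and 12.9% of those in the WT-labelled list. List-wide, the shares were 4.83% and 11.8%.

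**Figure D4:**
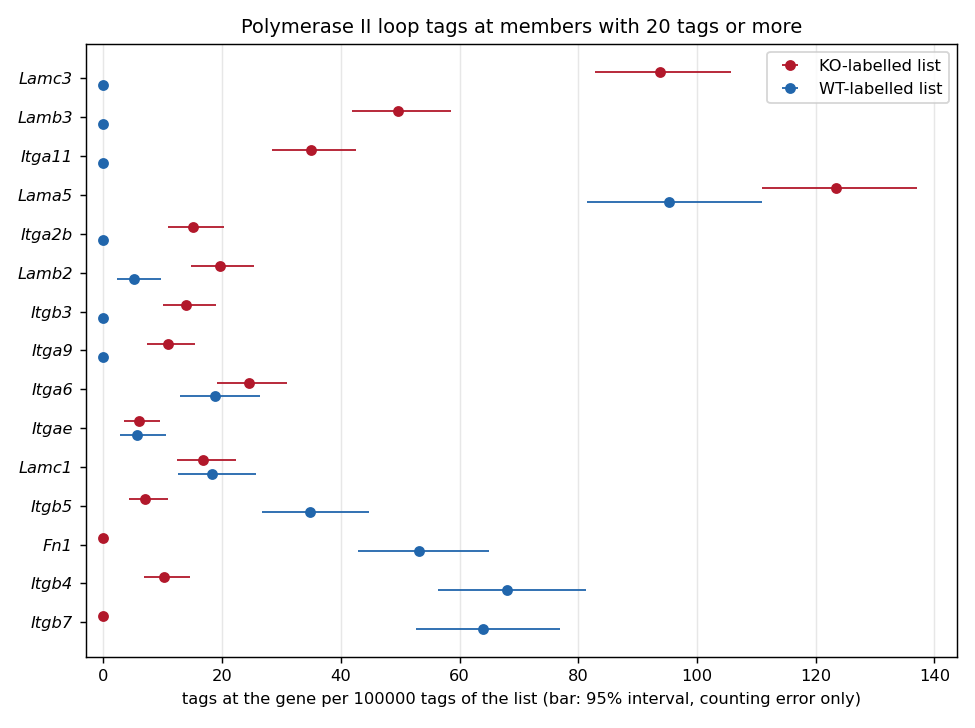
Tags at each of 15 members with 20 or more tags over both lists, per 100000 kept tags of the list, with exact 95% intervals for counting error (red for KO-labelled above blue for WT-labelled, no bar at 0 tags). Lamc3, Lamb3, Itga11, Itga2b, Itgb3 and Itga9 have tags in the KO-labelled list alone, and Fn1 and Itgb7 in the WT-labelled list alone.

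At the ligands, the lists differed most at Fn1, Lamc3, Lamb3 and Lama5. Fn1 had no kept loop in the KO-labelled list and 12 loops with 93 tags in the WT-labelled list, or 53.1 per 100000 tags (95% interval 42.9 to 65.0). Of these, 89 tags came from a 12.8 kb anchor (chr1:71642630-71655469) over the gene's upper end, and the strongest loop, with 34 tags, spanned 24.7 kb. Over all loops with at least 1 tag, Fn1 had 4 tags in the KO-labelled list, against 139 in the WT-labelled list. The lists thus differed at a gene whose RNA was not called. Lama5 had 353 tags over 33.2 kb of anchors in the KO-labelled list, against 167 tags over 12.4 kb in the WT-labelled list, or 123 (111 to 137) against 95.4 (81.4 to 111) per 100000. Per kb of anchor the order turned, with 10.6 tags in the KO-labelled and 13.5 tags in the WT-labelled list. Over all loops with at least 1 tag the difference was -1.72 per 100000. In both lists an anchor covered the upper end of the gene, where the transcript starts on the minus strand. From there a loop to the neighbourhood of Rps21 and Cables2 had 30 tags in the KO-labelled list and 15 tags in the WT-labelled list. These are raw tags, not scaled to the size of each list.

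Lamb3 had 142 tags over 29.2 kb of anchors in the KO-labelled list and none in the WT-labelled list. Its largest anchor, 17.6 kb, also lay near Camk1g, and its loops joined Lamb3 with Camk1g and G0s2. Lamc3 had 268 tags in the KO-labelled list and none in the WT-labelled list, although its RNA was near 0 counts under both labels. Of these, 248 tags belonged to a 16.2 kb anchor (chr2:31949635-31965858) that begins past the upper end of Lamc3 and reaches Aif1l. With anchors required to overlap the gene itself, the difference shrank to 20.6 per 100000 tags, against 93.7 as first counted. Lamb2 had 56 tags in the KO-labelled list, against 9 in the WT-labelled list, or 19.6 (14.8 to 25.4) against 5.14 (2.35 to 9.75) per 100000. In the KO-labelled list anchors lay at both ends of the gene, with a 17-tag loop between them. The anchors at its upper end, with 52 tags in the KO-labelled list and all 9 in the WT-labelled list, also lay near Usp19. Lamc1 had 48 tags in the KO-labelled list, against 32 in the WT-labelled list, or 16.8 (12.4 to 22.3) against 18.3 (12.5 to 25.8) per 100000. Scaled to the lists the order was thus the other way, with overlapping intervals.

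Among the receptors, Itga11, Itga2b and Itgb3, whose RNA rose, had kept loops in the KO-labelled list alone, while Itgb1 had 1 kept loop over both lists. Itgal, whose RNA fell, likewise had 15 kept tags in the KO-labelled list and 0 in the WT-labelled list. Itga7, Itga8 and Itgb8, whose RNA rose, had no kept loop in either list. The KO-labelled list was also the larger, with 57463 kept loops against 22148. Itgb1 and the laminin chain Lamb1, with the largest rises among the members at 5 CPM or more, had 2 and 0 kept tags in the KO-labelled list, against 0 and 0 in the WT-labelled list. Itga11 had 100 tags over 25.8 kb of anchors, Itga2b 43 over 4.96 kb, Itgb3 40 over 17.8 kb and Itga9 31 over 20.6 kb in the KO-labelled list, against no kept loop in the WT-labelled list for any of these 4. Their strongest loops stayed within the gene for Itga11 (15 tags, 11.6 kb) and Itgb3 (10 tags, 12.5 kb), and for Itga2b reached Ubtf (9 tags, 148 kb). Itga6 had 70 tags in the KO-labelled list, against 33 in the WT-labelled list, with overlapping intervals (19.1 to 30.9 and 13.0 to 26.5 per 100000), and in both lists its strongest loop led to Gm17250. Around the gene ends only, the difference at Itga6 turned to -4.11 per 100000.

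Itgb5, whose RNA was not called, had 20 tags in the KO-labelled list, against 61 in the WT-labelled list, or 6.996 (4.27 to 10.8) against 34.8 (26.6 to 44.7) per 100000. A 21-tag loop of 13.7 kb within Itgb5 was the strongest in the WT-labelled list. Itgb7, whose RNA rose, had no kept loop in the KO-labelled list and 112 tags in the WT-labelled list, from anchors that also lay near Zfp740 and Rarg, and these led to Rarg, Csad and Sp1. Itgb4 had 29 tags in the KO-labelled list, against 119 in the WT-labelled list, of which 117 belonged to an anchor outside the gene at Sap30bp. With anchors required to overlap the gene itself the difference at Itgb4 turned to 4.45 per 100000 in favour of the KO-labelled list. Itgae had 17 tags in the KO-labelled list, against 10 in the WT-labelled list, and the sign of its difference changed with the thresholds.

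**Figure D5:**
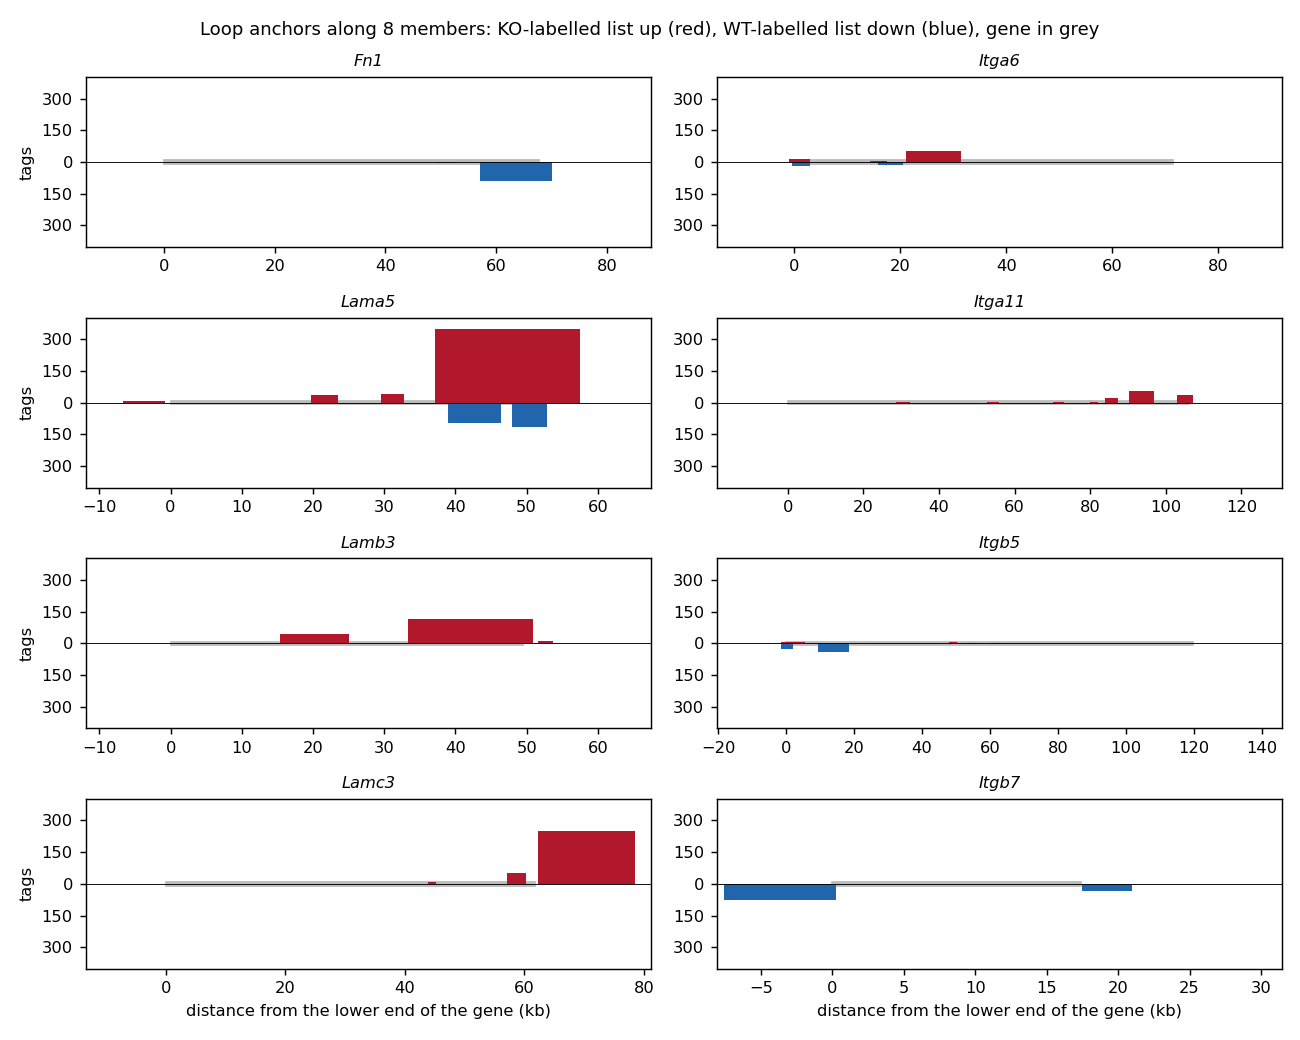
Anchors of kept loops along 8 members, in kb from the lower-coordinate end of each gene (grey), with bar height giving the tags of each anchor, KO-labelled upwards in red and WT-labelled downwards in blue. The Fn1 anchor with 89 tags lies at the upper end in the WT-labelled list, and the Lamc3 anchor with 248 tags lies past the upper end of the gene in the KO-labelled list.

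Promoter sequence was read for the starts that these values bear on. KLF and Sp factors are known to bind GC boxes and related GT-rich motifs. In the 250 bases before each start in the RefSeq promoter table of GRCm38.p6, GGGCGG on either strand occurred in 32.7% of 32851 starts, and the letters GGGTGTGG in 3.20%. Of the 38 members, 23 matched the table, with 26 starts. GGGCGG was present in 9 of these 26 (34.6%), near the share of all starts, and GGGTGTGG in 1 of 26, at Itga4. A match is a description of letters, not of binding. The sequences below are those of members at 5 CPM or more for which at least 100 bases lie outside any annotated gene, so that a strong riser (Itgb1), smaller risers (Itga3 and Itga5) and genes without a call (Itgb5 and Lamb2) can be read side by side. They are given 5′ to 3′ on the gene's strand up to the base before the annotated gene, with GGGCGG or its complement CCGCCC in capitals. The windows are chr8:128685404-128685653 (plus strand) for Itgb1, chr11:95076845-95076964 (minus strand) for Itga3, chr15:103366792-103367041 (minus strand) for Itga5, chr16:33829415-33829664 (plus strand) for Itgb5 and chr9:108479612-108479846 (plus strand) for Lamb2.
Itgb1: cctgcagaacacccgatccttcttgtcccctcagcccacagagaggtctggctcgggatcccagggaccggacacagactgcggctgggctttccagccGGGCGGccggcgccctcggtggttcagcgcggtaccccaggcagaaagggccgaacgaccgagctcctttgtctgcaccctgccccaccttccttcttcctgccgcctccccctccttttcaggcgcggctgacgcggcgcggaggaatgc
Itga3: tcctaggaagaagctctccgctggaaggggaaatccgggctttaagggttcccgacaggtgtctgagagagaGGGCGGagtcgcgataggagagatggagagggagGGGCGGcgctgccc
Itga5: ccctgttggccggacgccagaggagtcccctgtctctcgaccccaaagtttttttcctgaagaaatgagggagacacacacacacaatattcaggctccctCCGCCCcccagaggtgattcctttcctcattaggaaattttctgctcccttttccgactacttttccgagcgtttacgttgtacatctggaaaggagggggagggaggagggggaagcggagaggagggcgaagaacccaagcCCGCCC
Itgb5: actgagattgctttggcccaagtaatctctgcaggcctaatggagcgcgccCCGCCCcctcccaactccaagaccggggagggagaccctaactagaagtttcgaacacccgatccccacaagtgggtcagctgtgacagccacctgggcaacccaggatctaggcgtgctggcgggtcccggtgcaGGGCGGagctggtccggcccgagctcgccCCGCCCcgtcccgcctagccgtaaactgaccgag
Lamb2: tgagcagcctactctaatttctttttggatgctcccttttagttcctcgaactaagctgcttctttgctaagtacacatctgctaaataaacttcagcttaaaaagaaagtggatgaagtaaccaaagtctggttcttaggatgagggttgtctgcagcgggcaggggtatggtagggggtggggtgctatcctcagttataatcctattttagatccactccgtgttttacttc
The printed windows held 1 GC box at Itgb1, 2 at Itga3, 2 at Itga5, 3 at Itgb5 and 0 at Lamb2, with a G and C content of 68.0%, 62.5%, 55.6%, 65.2% and 43.0% in that order. The windows differ in length, and over the full 250 bases before the start Itga3 and Itgb5 held 3 boxes each. Kept loops over the annotated start carried 2 tags at Itgb1 in the KO-labelled list and 0 in the WT-labelled list. At Itga5 they carried 14 raw tags in the KO-labelled list, against 5 in the WT-labelled list. Scaled to the lists these were 4.90 (2.68 to 8.22) against 2.85 (0.927 to 6.66) per 100000 kept tags, with overlapping intervals. At Lamb2 kept loops over the start carried 21 raw tags in the KO-labelled list, against 0 in the WT-labelled list. At Itgb5 the order of raw tags was the other way, with 6 in the KO-labelled list, against 28 in the WT-labelled list. At Itga3 no kept loop covered the start in either list.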

How the data were processed

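Each RNA-seq library has a deposited table of raw read counts by gene symbol, with no normalization by the authors. HISAT2 2.1.0 and featureCounts 2.0.3 stand in the submitters' processing notes with mm10, but the 5 closing rows look like htseq-count output, so the counter is unsettled. No source used here gives its strand setting or annotation, and overlapping genes (19 of 38 members overlap another annotated gene) cannot be told apart. These 5 rows (20.4% to 22.5% of the column totals) stayed out of all sums.

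Per deposited loop, the lists hold its anchors, its count of paired tags and a q-value (false discovery rate). Each list is named in the labels of both replicates. The submitters' processing notes list HiC-Pro 2.11.1, Bowtie2 2.4.4 and MACS2 2.2.7.1, among other tools.

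Genes passing filterByExpr were scaled by TMM and tested with edgeR 4.0.16 (R 4.3.3; glmQLFit robust, glmQLFTest, two-sided), adjusted by Benjamini-Hochberg over 17273 genes. CPM use TMM-scaled library sizes; 3 counts correspond to 0.0837 to 0.108 CPM. SE of log2 fold changes came from the F statistic. They can be too small for genes with few counts under 1 label. For Egfl6 and Itga8 they were 0.38 and 0.47, against 0.81 and 1.00 with DESeq2. The fit was tested on simulated data. DESeq2 1.42.0 was an alternative. Gene coordinates and promoters came from RefSeq tables of GRCm38.p6 (mm10). Levels per length were planned but not computed, since transcript lengths were not used here.

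Members, lists and tests were chosen with earlier results of these data known. The counts cover all members, and the values of 1 member are not reported here. Genes named with values are Fn1, members averaging at least 5 CPM, the largest called rise and fall per role group, members with at least 20 loop tags, and the 3 largest called rises and falls of each partner list. A few further members are given with a fold change to account for the whole list. Itgb3, Itga7, Itga8 and Lama4 were given levels, Tns2 a fold change and Itgal loop tags after their values were seen. Replicate numbers did not pair the libraries: the deviations of KO 1 and WT 1 from their group means correlated at 0.0196, and the labels name no shared batch.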

Additional observations from a re-analysis of the deposited data

How the results depend on the processing

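Counts of called members stayed within 1.5 times in all 10 alternatives, at 15 to 20 higher (15 as reported) and 4 to 5 lower (5 as reported), and 20 of 31 members kept direction and call in each of them. Leaving out 1 library gave 15 to 16 higher and 4 to 5 lower members, and 11683 to 12273 called genes of all. With the replicate number as a block, 15 members were higher and 4 lower among 12410 called genes, and Itgb2 was the member that lost its call (-1.70) and the partner gene Fgg lost its call too (-1.65). Reversals were among uncalled members: with upper-quartile factors Itgb4 (0.0099) and Itgb5 (0.020); with library size alone, which moved the median of all genes by 0.21, Itgb4 (0.134), Itgb5 (0.144) and Lamb2 (0.094), and put 62.0% of called genes higher, against 50.9% as reported. Leaving out 1 library gave log2 fold changes of -0.014 to 0.047 for Itgav, -0.172 to 0.0026 for Itgb4, -0.141 to 0.0024 for Itgb5 and -0.321 to 0.604 for Lama4. Member loops numbered 2326 in the KO-labelled and 538 in the WT-labelled list with all loops, 122 and 51 with at least 3 tags, 179 and 67 at a false discovery rate of at most 0.001, and 176 and 63 around gene ends only, against 276 and 101 as reported. Differences in tags per 100000 reversed at Itgae (-3.13 with all loops, -1.59 at a rate of at most 0.05, -1.66 at 0.001), Lama5 (-1.72 with all loops), Itgb4 (4.45 with the gene body itself) and Itga6 (-4.11 at gene ends). The cause of these changes was not tested. The 7 members not tested had too few counts to pass the filter, and loop lists without replicates limit every loop comparison.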
